A study of Mus musculus with 6 samples.

Results

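The endothelial adhesion molecules and selectins are described here through 8 genes, Selp, Sele, Vcam1, Icam1, Icam2, Pecam1, Cdh5 and Tek. They were chosen by name: every probe set whose platform annotation named only one of these genes was taken, which gave 12 probe sets of the 22690 on the array and 8 of the 12393 genes it could name. Mouse skin was profiled on 6 Affymetrix arrays after a pump under the skin had released its content for 7 days. All mice were C57BL/6, and the labels name no other allele or treatment. Skin at the pump outlet was taken after PBS (the control, 1 array), IL-13 (1 array), TSLP (1 array) and TGF-beta (2 arrays, from mouse 1 and mouse 2). The remaining array held PBS skin from the abdomen, far from the outlet, called PBS distal below, and the labels do not say whether it came from the same mouse as the PBS outlet array. IL-13 is a type 2 cytokine, TSLP a cytokine made by epithelium in allergic inflammation, and TGF-beta a factor that drives matrix production and restrains immune cells. Values are MAS5 signals, linear intensities of 1 probe set on 1 array, and they say nothing of how the level of 1 gene compares with that of another.

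White blood cells leave the blood through the endothelium, the inner lining of vessels, in steps. Selectins catch them as they roll, immunoglobulin-type molecules such as VCAM-1 and ICAM-1 hold them through integrins, and PECAM-1 and VE-cadherin, the product of Cdh5, sit in the junctions between endothelial cells that they cross. Tek encodes TIE2, the receptor of the angiopoietins, which steadies the vessel wall, and several of these genes are switched on by NF-kappaB in inflamed endothelium. Vcam1 and Icam1 are also made by other cells, such as fibroblasts and leukocytes.

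Of the 8 genes, 7 reached 165, the median of all values, on at least 1 array, and 5 reached it on every array. Sele stayed below it everywhere and entered no test. Differences are given on the scale log2(signal + 27.4), where 1 is a doubling and dim genes are understated. Where a gene had several probe sets, the one with the highest mean stood for it. In whole skin, fewer endothelial cells and less RNA per cell cannot be told apart. Krt14, a keratin of basal epidermis, read 5886 to 8745 on the 6 arrays, well above that median on each. The endothelial label was checked against 28 pan-endothelial markers that are not members, of which 25 reached the median of all values on at least 1 array.

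The promoters of the selectin genes Selp and Sele are shown because their signals moved together over the arrays, and that of Icam1 because it followed another order. The 3 sequences run from 250 bases before to 50 bases after the gene's start, 5′ to 3′ on the gene's own strand, which is the plus strand for all 3. They are from RefSeq on GRCm38.p6, at chr1:164115014-164115313 for Selp, chr1:164047984-164048283 for Sele and chr9:21015690-21015989 for Icam1. Capitals mark every match, on either strand, of GGNNNTTCC, a loose NF-kappaB-type motif, and of AGGAAG, a core that ETS factors bind.
Selp: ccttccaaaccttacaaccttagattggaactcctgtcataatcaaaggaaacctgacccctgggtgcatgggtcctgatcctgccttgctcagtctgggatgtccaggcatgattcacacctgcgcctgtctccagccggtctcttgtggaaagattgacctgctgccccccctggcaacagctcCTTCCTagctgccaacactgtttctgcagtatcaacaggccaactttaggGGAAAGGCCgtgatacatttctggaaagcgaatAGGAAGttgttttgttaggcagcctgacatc
Sele: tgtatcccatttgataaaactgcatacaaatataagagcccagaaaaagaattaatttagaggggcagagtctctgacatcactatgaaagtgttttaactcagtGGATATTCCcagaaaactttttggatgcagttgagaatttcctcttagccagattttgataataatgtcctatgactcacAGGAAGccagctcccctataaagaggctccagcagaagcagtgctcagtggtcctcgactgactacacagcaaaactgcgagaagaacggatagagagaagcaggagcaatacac
Icam1: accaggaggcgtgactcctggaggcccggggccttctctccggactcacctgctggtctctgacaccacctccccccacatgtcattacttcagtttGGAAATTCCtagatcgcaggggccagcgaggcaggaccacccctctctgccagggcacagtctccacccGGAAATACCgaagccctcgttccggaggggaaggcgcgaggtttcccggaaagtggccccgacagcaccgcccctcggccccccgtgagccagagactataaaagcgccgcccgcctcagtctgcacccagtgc
Selp held 1 match of GGNNNTTCC, ending 6 bases before the start, and 2 of AGGAAG. Sele held 1 of each, with the NF-kappaB-type match beginning 145 bases before the start. Icam1 held 2 NF-kappaB-type sites, beginning 153 and 84 bases before the start, of which the first reads as a match on both strands, and no AGGAAG. The first motif is in 18.5% and the second in 35.4% of the 32851 promoters of the table, so neither sets these genes apart. The Tek promoter in the same table held neither motif, and Vcam1, Icam2, Pecam1 and Cdh5 had no entry there.

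Selp encodes P-selectin, which endothelium and platelets store and move to the surface. Its signal was 545 on the PBS outlet array, 389 with IL-13, 377 with TSLP, 246 and 244 in the 2 TGF-beta mice, and 198 in PBS distal skin. All 4 cytokine arrays lay below the PBS outlet array, the TGF-beta mice lay lowest among the outlet arrays and close to each other, and PBS distal lay below them all. The TGF-beta mean was 245 ± 1.55 (SD, n = 2). Against PBS at the outlet, Selp was lower by −1.07 with TGF-beta on the log2 scale (SE 0.17, adjusted p = 0.863, limma with Benjamini-Hochberg adjustment), so it did not pass the test. That test called 0 of 7744 genes, while 355 had an unadjusted p under 0.05, Selp among them with 0.00297. It rests on 1 residual degree of freedom, from the 2 mice, and the single PBS array was assumed to vary like them. By size, Selp was the only member of the 7 at least 2-fold lower in both mice, where 0.155% of all genes tested were that much lower. Selp no longer met that size with an offset of 64 (−0.98) or with the mean of its 2 probe sets (−0.76). No member was as much higher in both mice, as 0.181% of all genes were.

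With IL-13 Selp differed from the PBS outlet array by −0.46 and with TSLP by −0.50, each from 1 array and so without a replicate check. A second Selp probe set, below the median of all values on every array, read 97.8, 124, 113, 61.2, 68.1 and 38.7 in the same order of arrays. It placed IL-13 and TSLP above PBS and kept the TGF-beta mice and PBS distal lowest. With the mean of both probe sets the difference was −0.09 for IL-13 and −0.17 for TSLP, against −0.76 for TGF-beta and −1.14 for PBS distal. The 2 sets had a Pearson correlation of 0.84 over the 6 arrays. Of the members, only Selp had PBS above all 4 cytokine arrays at the outlet, a pattern of 25.3% of all genes tested.

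Sele encodes E-selectin, which endothelium makes when cytokines such as TNF or IL-1 act on it. It read 77.1 in PBS outlet skin, 41.9 with IL-13, 44.4 with TSLP, 40.1 and 29.3 with TGF-beta, and 29.4 in PBS distal skin. The PBS outlet array was highest, as for Selp, and the other 5 arrays lay close together. All these values are dim, so they are given with no test. The Pearson correlation of Selp and Sele was 0.90 over 6 arrays and 0.89 over the 5 outlet arrays, a description of values that share the same few arrays.

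Ligands and counter-receptors of the selectins were read from a list of 16 genes, of which 15 were on the array and 7 entered the tests. Selplg encodes PSGL-1, the leukocyte ligand of P-selectin, and it read 617 with PBS, 673 with IL-13, 868 with TSLP, 570 and 576 with TGF-beta, and 421 in PBS distal skin. It was highest with TSLP, where Selp was below the PBS value, and the TGF-beta mice were nearly equal for it too. For TGF-beta 0 of the 7 genes passed limma's test and 0 had an unadjusted p under 0.05, all 7 differences were negative, and their median was −0.10 against −0.05 for all genes. Platelets carry P-selectin as well. Of 15 platelet markers 11 were on the array and 4 reached the median of all values, and Gp9 was below it on every array. The summed signal of the platelet markers was 12537 with PBS, 12086 to 14893 with the cytokines and 10045 in PBS distal skin. F13a1 (7294 with PBS) and Pf4 (4264) made up most of it, so the sum mainly follows these genes. The part of platelets in the Selp values was not tested.

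**Figure D1:**
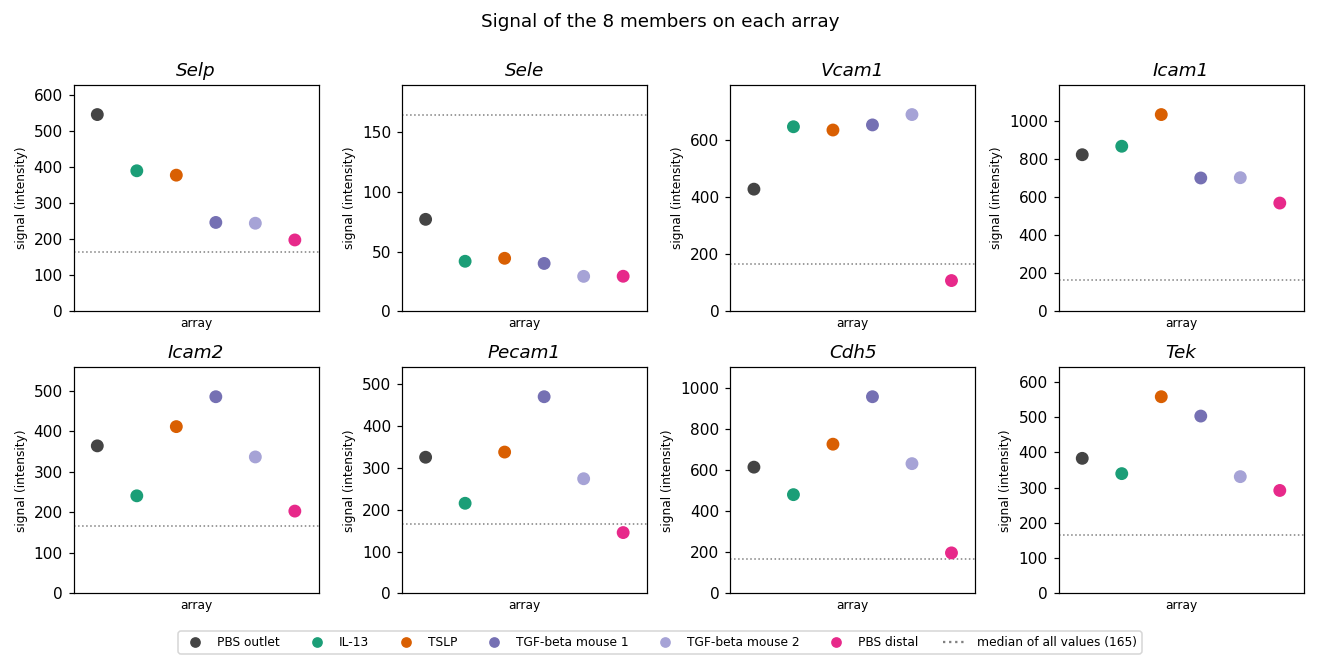
Signal of each of the 8 genes (linear intensity, axis from 0) on the 6 arrays, 1 point per array, with a dotted line at 165, the median of all values. PBS outlet skin is highest for Selp and Sele, PBS distal skin is lowest for 7 of the 8 genes, and Vcam1 has PBS distal at 108 against 429 to 691 at the outlet.

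Vcam1 encodes VCAM-1, to which integrins of lymphocytes, monocytes and eosinophils bind. It read 429 in PBS outlet skin, 648 with IL-13, 636 with TSLP, 654 and 691 with TGF-beta, and 108 in PBS distal skin. The 4 cytokine arrays lay close together, all above PBS at the outlet, and PBS distal was far below every outlet array. Of the 7 members tested, Vcam1 alone had PBS below all 4 cytokine arrays, as did 15.3% of all genes tested.

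Against the outlet PBS array the Vcam1 difference was 0.57 with IL-13, 0.54 with TSLP and 0.62 with TGF-beta (SE 0.15, adjusted p = 0.863, unadjusted p = 0.0149, limma). The TGF-beta mean signal was 673 ± 25.7 (SD, n = 2). None of these differences reached a doubling, and the TGF-beta one did not pass the test. All 3 comparisons use the same PBS array, so a low reading on that array would enter each of them. The probe set used for Vcam1 reached 165 on 5 of the 6 arrays, all but PBS distal, and the other 2 sets reached it on 1 and 0 arrays. One read 117, 140, 181, 142, 117 and 49.1 in the order used above. The other read 45.8, 95.4, 135, 132, 65.0 and 47.7. Both had the PBS array lowest at the outlet, the first by little, and the second did not place PBS distal below PBS outlet.

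PBS distal was then set against the 5 outlet arrays in a fit whose spread came from those 5 arrays, which hold 4 different treatments, with 4 residual degrees of freedom. Vcam1 was lower in PBS distal skin by −2.22 (SE 0.24, adjusted p = 0.00950, limma), and the mean outlet signal was 5.68 times the distal one. On the other probe sets that ratio was 2.83 and 1.98, and with the mean of all 3 sets the difference was −1.32 (adjusted p = 0.0475). At 108 PBS distal was below 165, so Vcam1 entered the test through the outlet arrays, where it was high, and dropped out when every array had to reach 165. Vcam1 passed the test in 12 of the 13 alternatives that gave it a value, with adjusted p from 0.00143 to 0.0552. It did not pass in a fit whose spread came from the TGF-beta pair alone (−2.19, adjusted p = 0.0552). Of the 7 members 2 fell, Vcam1 and Cdh5, where 2.68% of the 7949 genes tested did (213 genes) and 1.25% were called higher. At an unadjusted p under 0.05 the share was 20.5% in either direction (1627 genes). The same 2 members were at least 2-fold lower, beside 3.9% of all genes, and 0 were 2-fold higher, beside 1.37%. An exact permutation test of 1 array against 5 cannot give a p below 0.167.

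These background counts moved with single arrays. Without the IL-13 array 48 genes were lower, and without TGF-beta mouse 1 there were 88. Vcam1 stayed called without each of the 5 outlet arrays in turn.

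Leukocyte integrins, among them those that bind VCAM-1 and ICAM-1, were read from a list of 10 genes, of which 5 entered this comparison. Of these 5 genes, 4 were lower in PBS distal skin than at the outlet and 0 passed the test (limma), 2 had an unadjusted p under 0.05 (20.5% of all genes did), and their median was −0.47 against 0.02 for all genes. Itgb2, the beta chain of the ICAM-1 receptors LFA-1 and Mac-1, read 1780 with PBS, 2538 with IL-13, 2479 with TSLP, 1801 and 1500 with TGF-beta, and 1185 in PBS distal skin. The IL-13 and TSLP arrays were highest for it. Itgb1, a chain of the VCAM-1 receptor VLA-4, differed by −0.93 in PBS distal skin (adjusted p = 0.107, limma), and it passed only without TGF-beta mouse 2 (adjusted p = 0.0485). Itga4 and Itgal, the alpha chains of VLA-4 and LFA-1, were below 165 on all arrays.

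Icam1 encodes ICAM-1, which holds leukocytes through LFA-1 and Mac-1. It read 821 with PBS, 865 with IL-13, 1031 with TSLP, 699 and 700 with TGF-beta, and 567 in PBS distal skin. TSLP was the highest array, the TGF-beta mice were equal within 2 units of signal and lay below the other 3 outlet arrays, and PBS distal was the lowest. Both TGF-beta mice below those 3 arrays was a pattern of 2 members, Selp and Icam1, and of 12% of all genes tested. Both mice below PBS alone, a pattern of the same 2 members, held for 42.5% of all genes, and both above PBS, as for Vcam1 and Cdh5, for 27.9%. The TGF-beta difference from PBS was −0.22 (SE 0.15, adjusted p = 0.863, limma), the TSLP difference 0.32 and the IL-13 difference 0.07. In PBS distal skin Icam1 differed from the outlet by −0.50 (adjusted p = 0.231, limma).

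Genes that act on these adhesion molecules, such as TNF, IL-1 and IL-4 receptor genes and NF-kappaB subunits, were read from a list of 28, of which 19 entered the comparison of PBS distal with the outlet. Of the 19 genes 3 fell and 0 rose, beside 2.68% and 1.25% of all genes, with a median of −0.54. They were Il1b (−3.15, adjusted p = 0.0414), Tnfrsf1b, a TNF receptor (−1.05, adjusted p = 0.0237), and Il1r1, the IL-1 receptor (−0.87, adjusted p = 0.0413, limma), which is named after its value was seen. Il1b, an activator of endothelium, read 588 with PBS, 1578 with IL-13, 1060 with TSLP, 415 and 483 with TGF-beta, and 57.7 in PBS distal skin. That last value is below 165, so Il1b entered the test through the outlet arrays, where it was high. IL-13 and TSLP had it above PBS, and TGF-beta below, an order that Icam1 and the dimmer Selp probe set shared, and the probe sets standing for the other 7 members did not. Il6 differed from PBS by 1.92 with IL-13 and 2.29 with TSLP. It read 106 with PBS, below 165, so it entered both comparisons through the cytokine array, where it was high. Il4ra, a chain of the IL-13 receptor, read 1387 with PBS, 1323 with IL-13, 1055 with TSLP, 691 and 1010 with TGF-beta, and 653 in PBS distal skin. Tnf, Ifng, Il4 and Il13 were below 165 on all arrays.

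Icam2 encodes ICAM-2, a ligand of LFA-1 that resting endothelium carries. It read 364 with PBS, 241 with IL-13, 411 with TSLP, 485 and 336 with TGF-beta, and 203 in PBS distal skin. IL-13 was the lowest outlet array, and the TGF-beta mice lay on either side of PBS. Pecam1, which encodes PECAM-1 (CD31), read 325, 215, 337, 470, 274 and 145 in the same order, with the same arrays high and low. Neither differed between TGF-beta and PBS beyond the spread of the 2 mice (Icam2 0.14, SE 0.27, adjusted p = 0.926; Pecam1 0.13, SE 0.36, adjusted p = 0.944, limma).

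Cdh5 encodes VE-cadherin, the adhesion protein of endothelial adherens junctions. It read 614 with PBS, 480 with IL-13, 726 with TSLP, 957 and 631 with TGF-beta, and 197 in PBS distal skin. Again IL-13 was the lowest and TGF-beta mouse 1 the highest outlet array, and PBS distal lay far below. Both TGF-beta mice were above PBS, mouse 2 by 0.04 and mouse 1 by 0.62, and the mean difference of 0.33 did not pass the test (SE 0.29, adjusted p = 0.863, limma). A second Cdh5 probe set read 8.44 to 27.5, too dim to use.

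Cdh5 fell in PBS distal skin against the 5 outlet arrays by 1.63 (SE 0.30, adjusted p = 0.0342, limma), with a mean outlet signal 3.46 times the distal one. The call was lost without the TSLP array (−1.59, adjusted p = 0.0520), with the mean of both probe sets (−0.96, adjusted p = 0.0721), with no filter on dim genes (adjusted p = 0.0575) and with the spread taken from the TGF-beta pair alone (−1.57, adjusted p = 0.131). Pecam1 differed by −0.99 (adjusted p = 0.140) and Icam2 by −0.74 (adjusted p = 0.216), which did not pass.

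Tek read 383 with PBS, 339 with IL-13, 557 with TSLP, 502 and 331 with TGF-beta, and 292 in PBS distal skin. TSLP was its highest array, which among the members it shared with Icam1 alone, and PBS distal its lowest, though close to TGF-beta mouse 2. The TSLP difference from PBS was 0.51, and that of TGF-beta was 0.09 (SE 0.29, adjusted p = 0.957, limma). In PBS distal skin Tek differed from the outlet by −0.47 (adjusted p = 0.408, limma).

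Of 17 genes of angiopoietin-Tie and VEGF signalling, 13 entered the comparison of PBS distal with the outlet. Of the 13 genes 1 fell and 0 rose, beside 2.68% and 1.25% of all genes, and the median of the 13 was −0.57. The gene that fell was Svep1, whose product is a ligand of the receptor TIE1 (−0.87, adjusted p = 0.0261, limma). Ptprb, the phosphatase VE-PTP that acts on TIE2 and VE-cadherin, differed by −0.85 (adjusted p = 0.110, limma). Angpt2, a ligand of TIE2, read 190 with PBS, 119 with IL-13, 216 with TSLP, 210 and 135 with TGF-beta, and 103 in PBS distal skin, with IL-13 the lowest outlet array as for Cdh5. Pgf, a VEGF family ligand, differed by 1.55 between IL-13 and PBS, the only gene of the list past a doubling there. It read 48.7 with PBS and 196 with IL-13, so it reached 165 only through the array where it was high. Angpt1 and Tie1 were below 165 on all arrays.

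Among 16 measured junction partners of VE-cadherin, which include catenins and tight junction proteins, 0 passed the test in PBS distal skin and 0 with TGF-beta (limma), where 5 and 0 had an unadjusted p under 0.05, beside 20.5% and 4.58% of all genes. Their medians were −0.10 and 0.10. Most of them are made by epidermis as well. The members' medians in the same comparisons were −0.74 and 0.13, beside 0.02 and −0.05 over all genes.

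**Figure D2:**
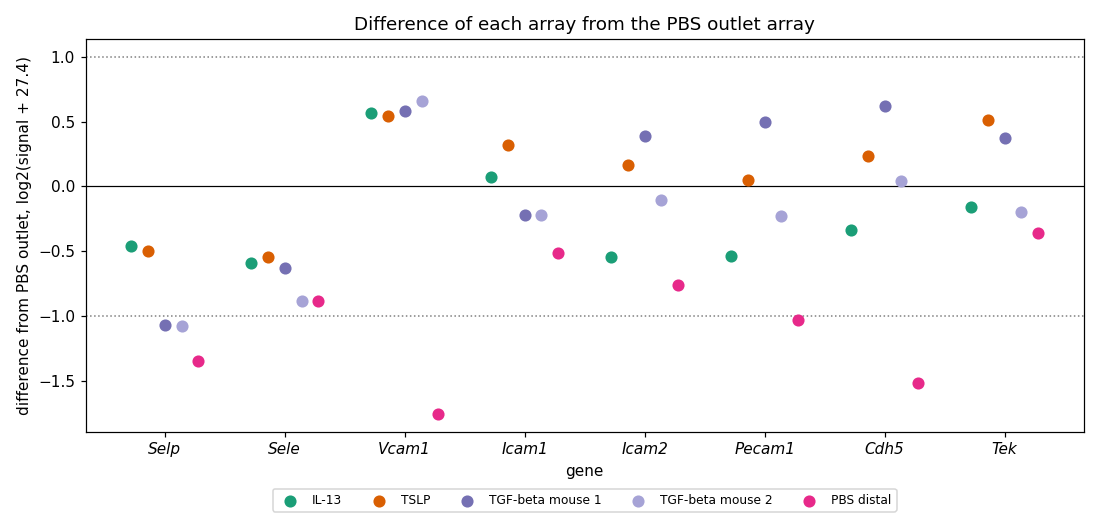
Difference of each array from the PBS outlet array for the 8 genes, in log2(signal + 27.4), 1 point per array, with dotted lines at a doubling and a halving. Vcam1 has all 4 cytokine arrays between 0.54 and 0.65, Selp has the TGF-beta mice at −1.07 and −1.08, and 4 genes in PBS distal skin lie below −1.

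Set beside one another, the cytokine arrays gave the members no common direction. With IL-13, 5 of the 7 genes tested were below PBS and 2 above, with a median of −0.34 against −0.07 for all genes. With TSLP, 6 were above and 1 below, with a median of 0.23 against −0.01. At least a doubling or halving was reached by 0 of 7 members with either, where 1.12% of all genes were higher and 0.41% lower with IL-13, and 1.01% and 0.446% with TSLP. TSLP was above IL-13 for 5 of the 7, the exceptions being Selp and Vcam1, where 58.4% of all genes were. With limma and a spread borrowed from the TGF-beta pair, none of the 7 members passed in either comparison; for Vcam1 the unadjusted p was 0.0408 with IL-13 and 0.0486 with TSLP.

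The 2 TGF-beta mice were far apart for some members and equal for others. Their difference, mouse 2 minus mouse 1, was −0.01 for Selp, 0.00 for Icam1 and 0.07 for Vcam1. For Icam2 it was −0.49, for Pecam1 −0.72, for Cdh5 −0.58 and for Tek −0.56. These 4 and, by a trace, Selp were higher in mouse 1, as 46.6% of all genes were, and for Icam2, Pecam1 and Tek the sign of the difference from PBS depended on the mouse. The 25 pan-endothelial markers did the same: their median difference from PBS was 0.34 in mouse 1, where 21 were above PBS, and −0.17 in mouse 2, where 8 were.

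Over the arrays the members formed separate groups, which is described here with no test because the arrays are few and PBS distal stands apart. Icam2, Pecam1 and Cdh5 had Pearson correlations of 0.93 to 0.98 over 6 arrays and 0.96 to 0.97 over the 5 outlet arrays. Tek had 0.75 to 0.78 with each of these over the outlet arrays. Selp and Sele formed the other pair. Vcam1 followed neither group: with Cdh5 it had 0.89 over 6 arrays but 0.16 over the outlet arrays, and with Selp 0.40 and −0.83. Icam2 and Pecam1 lie on the same chromosome with 2 protein-coding genes between them, Ern1 and Tex2.

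**Figure D3:**
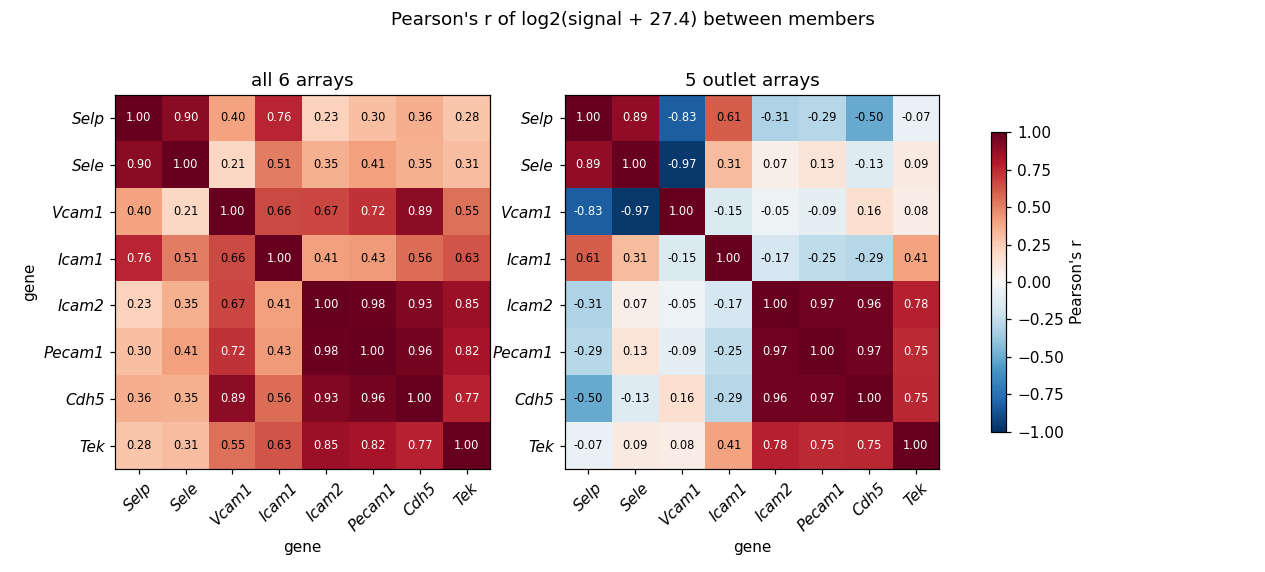
Pearson's r of log2(signal + 27.4) between each pair of the 8 genes, over all 6 arrays (left) and the 5 outlet arrays (right), with the value in each cell and colour from −1 (blue) to 1 (red). Icam2, Pecam1, Cdh5 and Tek form a red block in both panels, while the 0.89 of Vcam1 with Cdh5 becomes 0.16 without PBS distal.

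The genes whose log2 values were most like each member over the 6 arrays were sought among 1827 genes that varied enough, with an SD of at least 0.3. For Pecam1 they were Esam (0.99), Emcn (0.99) and Igf2 (0.98), and for Icam2 they were Pecam1, Emcn and Adgrl4, with 0.97 to 0.98. Esam and Emcn encode endothelial surface proteins. For Cdh5 they were Notch4, B3gnt9 and Mgp (all 0.99). For Tek they were Cpeb1 (0.97), S1pr1 (0.97) and Coq8a (0.95). Over the outlet arrays alone these values ranged from 0.93 to 0.99.

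For Vcam1 the most alike were Saa3 (0.998), Clec4n (0.996) and Ms4a7 (0.995), and over the outlet arrays 0.99, 0.98 and 0.92. Saa3, an acute-phase protein, read 5386 with PBS, 10749 with IL-13, 9981 with TSLP, 11649 and 11467 with TGF-beta, and 231 in PBS distal skin. It had PBS below every cytokine array at the outlet and PBS distal far below all of them, as Vcam1 did. In all, 207 of the genes searched had a correlation above 0.9 with Vcam1 over the 6 arrays. For Icam1 they were Cebpd, Lair1 and Gfpt2 (all 0.99), of which Cebpd, a transcription factor of the acute-phase response, read 1939, 2228, 2795, 1633, 1451 and 1102 in the order PBS, IL-13, TSLP, TGF-beta mouse 1, mouse 2 and PBS distal. For Selp they were Il17ra (0.97), Spi1 (0.95) and Rhd (0.94), and for Sele they were Lpar1, Ehbp1l1 and Lrrc2 (0.97 to 0.98).

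In PBS distal skin all 7 members tested were below every outlet array, a pattern of 24.9% of all genes, and 0 were above every outlet array, as 26.8% were. Of the 7, Vcam1 (108) and Pecam1 (145) read below 165 in PBS distal skin. Both entered this comparison and the next through outlet arrays, where they were high. Against the PBS outlet array alone, 4 members were at least 2-fold lower, Vcam1 (−1.76), Cdh5 (−1.52), Selp (−1.35) and Pecam1 (−1.03), beside 3.5% of all genes tested, and 0 were as much higher, beside 0.787%. The other differences were −0.76 for Icam2, −0.51 for Icam1 and −0.36 for Tek. These are differences between 2 arrays with no replicate check.

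Most pan-endothelial markers were lower there too. Of the 25 tested, 22 were lower in PBS distal skin than at the outlet and 3 were higher, with a median of −0.70. In limma's test 3 fell and 0 rose. In all, 20 lay below all 5 outlet arrays. Over all genes tested, 2.68% fell, 1.25% rose and 24.9% lay below all 5 outlet arrays. The 3 markers that fell were Cd93 (−1.69, adjusted p = 0.0436), Tal1 (−1.11, adjusted p = 0.0351) and Lyl1 (−0.90, adjusted p = 0.0302, limma), and Lyl1 is named after its value was seen. Egfl7 (−1.15, adjusted p = 0.0842) and Emcn (−1.15, adjusted p = 0.109, limma) did not pass. The part of other cells in these calls was not tested. The summed signal of the 28 markers was 14297 in PBS distal skin and 16846 to 24349 at the outlet. Pericyte and smooth muscle markers summed to 13158 and 17896 to 26738, with 1 of 11 called lower, Pdgfrb (−0.99, adjusted p = 0.0373). Of 6 lymphatic markers 2 fell, Pdpn (−1.05, adjusted p = 0.0426) and Stab1 (−0.76, adjusted p = 0.0413), and Pdpn is made by fibroblasts and keratinocytes as well. Lyve1, a hyaluronan receptor of lymphatic endothelium and some macrophages, went the other way: it read 2407 with PBS, 1287 with IL-13, 1390 with TSLP, 1104 and 806 with TGF-beta, and 3624 in PBS distal skin. PBS distal was its highest array, above all 5 at the outlet, and the difference of 1.45 was the largest of the list in size. It did not pass the test (adjusted p = 0.126, limma), except without the PBS outlet array (1.66, adjusted p = 0.0338).

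Vcam1 and Cdh5 were lower in PBS distal skin than the marker median: each dropped more, against the PBS outlet array, than all 25 markers. This was so on the brightest probe set of each gene only. The dimmer Vcam1 sets differed by −0.91 and 0.04, and the Cdh5 set too dim to use by −0.07. Less the median of the markers on the same array, Vcam1 differed by −1.08 and Cdh5 by −0.84, while Icam1 was at 0.17 and Tek at 0.32. In the same scale, Vcam1 stood at 0.82 with IL-13, 0.50 with TSLP, 0.24 and 0.82 with TGF-beta, and so above the marker median on all 4 cytokine arrays. In TGF-beta mouse 1 it lay within the range of the markers. It differed from PBS there by 0.58, and the highest marker by 0.96. Selp stood at −0.20, −0.54, −1.41 and −0.91 and so below the marker median on the same arrays. The dimmer Selp probe set did not share this with IL-13 and TSLP. It differed from PBS there by 0.27 and 0.16, where the marker medians were −0.26 and 0.04. Icam2 and Pecam1 stayed between −0.35 and 0.15 on all 5 arrays. These values have no test.

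**Figure D4:**
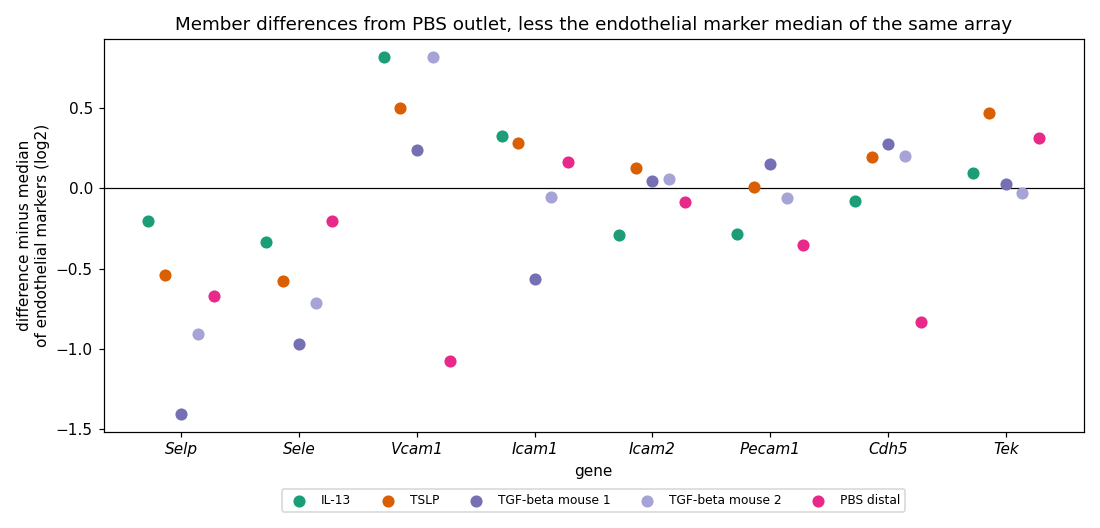
Difference from the PBS outlet array for the 8 genes less the median difference of 25 pan-endothelial markers on the same array, in log2, 1 point per array. Vcam1 lies above 0 on the 4 cytokine arrays and at −1.08 in PBS distal skin, Selp lies below 0 on all 5 arrays, and Icam2 and Pecam1 lie within −0.35 to 0.15.

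Markers of other cells differed between PBS distal and outlet skin as well, and their part in the members' values was not tested. Over all genes tested, limma called 2.68% lower and 1.25% higher. Of 9 neutrophil markers 5 fell, with a median of −1.85. They include Clec4d (−4.16, adjusted p = 0.0164) and S100a9 (−3.60, adjusted p = 0.0136, limma), and the list's summed signal was 4132 in PBS distal skin against 8377 to 16372 at the outlet. All 13 general leukocyte markers were lower, with 0 called by limma, 7 at an unadjusted p under 0.05 (20.5% of all genes) and a median of −0.50, and their summed signal was 22323 against 28748 to 33792. Monocyte and macrophage markers were lower in all 15 cases, with 3 called (Adgre1, C1qc and Mpeg1), a median of −0.47 and a summed signal of 44081 against 57540 to 67522. Of 6 mast cell and eosinophil markers all were lower and 3 called (Cma1, Fcer1a and Hdc), with a median of −1.03 and a sum of 2022 against 3399 to 5028. Of 12 dermal fibroblast markers 11 were lower and 1 called (Mfap5), with a median of −0.36 and a sum of 69437 against 73263 to 102630. Of 7 lymphocyte markers 6 were lower and 1 called (Gzma), with a sum of 1009 against 1681 to 2417. Of 4 platelet markers 1 fell, Ppbp (−2.14, adjusted p = 0.0426). Basal keratinocyte markers went the other way, with 1 of 8 called higher (Trp63, a factor of basal cells), a median of 0.58 and a summed signal of 49354 against 31833 to 38070. Adipocyte markers were also higher in 7 of 8 cases, with 0 called and a median of 0.54. Their summed signal was 26684 against 18902 to 24056. Of 10 skeletal muscle markers 6 were higher and 4 lower, from −1.40 (Myh2) to 2.68 (Myh4). Of these 10, 1 was called higher, a call not followed below.

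The calls on these list genes depended on single arrays and on the processing. Including the 5 neutrophil genes (Clec4d, S100a9, S100a8, Lcn2 and Csf3r), 24 list genes were named as lower. Of these, 19 lost the call without the IL-13 array (adjusted p 0.0562 to 0.0904), 17 without TGF-beta mouse 1 (0.0525 to 0.0868), 10 without the PBS outlet array (0.0502 to 0.0703), 9 without the TSLP array (0.0524 to 0.0655) and 1 without TGF-beta mouse 2 (0.0513). With no filter on dim genes 15 lost it (0.0554 to 0.0731), with eBayes without a trend 13 (0.0504 to 0.0629), and with the spread taken from the TGF-beta pair 22 (0.0514 to 0.169). With the mean of all probe sets 3 did, among them Tnfrsf1b at −0.73 (adjusted p = 0.217). Clec4d, Csf3r, Lcn2 and S100a9 were called without each of the 5 arrays. Of the 24, 1 gene, Clec4d, was called in every alternative that gave it a value. In PBS distal skin these genes read 49.4 (Clec4d), 94.2 (Csf3r), 158 (Lcn2) and 143 (S100a9), all below the filter. They entered the test through the outlet arrays, where they were high. So did Il1b (57.7 in PBS distal skin), Tal1 (110), Fcer1a (38.8), Hdc (67.2), Gzma (49.1) and Ppbp (56.0). With every compared array at or above the filter all of these genes dropped out. That alternative gave a value for 14 of the 24 list genes, and 0 of the 14 lost the call. Trp63 lost its call without the IL-13 array (0.83, adjusted p = 0.105), the TSLP array (0.83, 0.0705) or TGF-beta mouse 1 (0.78, 0.0733).

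**Figure D5:**
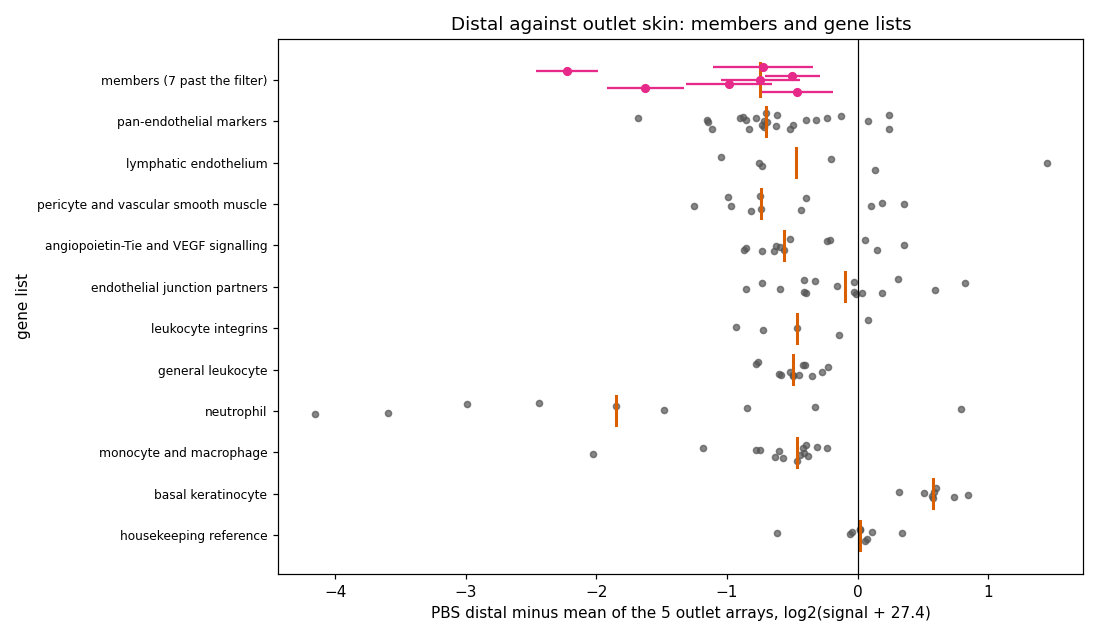
PBS distal minus the mean of the 5 outlet arrays, in log2(signal + 27.4), for the 7 members tested (pink, with the limma SE as a bar) and for gene lists (grey, 1 point per gene; orange bars are medians). Vcam1 at −2.22 and Cdh5 at −1.63 lie left of all 25 pan-endothelial markers except Cd93 at −1.69, and the median is −0.74 for the members and −0.70 for the markers.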

How the data were processed

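Total RNA from 6 skin samples, with biotin as the label, was profiled on Affymetrix arrays of 1 colour. The deposited intensities are on a linear scale, and the submitters' processing notes name MAS5 as the authors' tool, with no version given in the sources used here. Their trimmed means were 500.16 to 500.2, so the authors had scaled them together. MAS5's detection calls were not analysed here, and 0 sample columns were left unused. A single array has no depth that can be counted, and the number of arrays limits the precision.

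Each array was scaled to the mean trimmed mean (2% left out at each end), and log2(signal + 27.4) was taken, the offset being the 25th percentile of all values. Platform annotation named 1 gene for 20380 probe sets, 20351 of them updated through a RefSeq table of GRCm38.p6, and the brightest probe set stood for a gene. A gene entered a comparison with at least 1 compared array at or above 165. limma 3.58.1 in R 4.3.3 (lmFit, eBayes with an intensity trend, Benjamini-Hochberg adjustment over all genes tested, threshold 0.05) tested TGF-beta against PBS local in a fit of 5 groups, and PBS distal against the 5 outlet arrays in a fit of 2. The step was tested on simulated data. IL-13 and TSLP had 1 array each and were described by size. P-values measure the spread between these arrays. Correlations and figures used Python 3.11.15, numpy 2.4.6, pandas 2.3.3 and matplotlib 3.10.9.

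The members, the gene lists and the tests were chosen with earlier results of these data known. Named genes were the members, from each list up to 4 genes with the largest difference, partners of the members, and the 3 genes most like each member. Lyl1, Il1r1, genes of short counts in the lists of other cells and, as a tissue check, Krt14 were named outside that rule, after their values were seen. Alternatives covered the scaling, offset, filter, probe set rule, trend, single arrays and the spread used.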

Additional observations from a re-analysis of the deposited data

How the results depend on the processing

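No called difference changed sign in any alternative run that kept the brightest probe set or averaged the sets. On a dimmer set Vcam1 in PBS distal against the PBS outlet array was at 0.04. Among differences that had not passed a test, those of Icam2, Pecam1 and Tek with TGF-beta turned sign between the mice. On its dimmer set Selp turned with IL-13 (0.27) and TSLP (0.16). Cdh5 turned with IL-13 (0.35) on the set too dim to use. Less the endothelial marker median, an alternative chosen after seeing the data, Icam1 and Tek turned from below to above 0 in PBS distal skin (0.20 and 0.24 against the outlet), and Tek turned with TGF-beta (−0.04) and with IL-13 (0.09). No paired analysis was possible because the groups share fewer than 2 replicate numbers. Leaving out 1 TGF-beta mouse leaves no residual degree of freedom, so those are values with no test. With TGF-beta, genes 2-fold higher and lower in both mice numbered 14 and 12, with an offset of 64 they were 6 and 6, with every array at or above the filter 8 and 6, and with 1 mouse left out 27 to 144 and 45 to 112. In PBS distal against the outlet, limma called 99 higher and 213 lower. That became 45 and 113 with no filter, 60 higher without a trend, 0 and 5 with the spread taken from the TGF-beta pair, and 8 to 182 and 48 to 286 with 1 outlet array left out. By size, 70 and 138 replaced 109 and 310 there with every array at or above the filter. With IL-13, 31 genes 2-fold lower became 20 with an offset of 64, and 85 higher became 131 with no filter and 44 with every array at or above it. With TSLP, 77 higher became 48 with every array at or above it. In PBS distal against PBS local, 60 higher became 101 with no filter, and 60 and 267 became 38 and 137 with every array at or above it. The cause of these shifts was not tested beyond the fewer genes or arrays that each alternative holds.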
